A study of Mus musculus with 6 samples.

Results

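The Arp2/3 complex was followed through the genes of its subunits in mouse bone marrow stem and progenitor cells with and without Robo1. The members are the rows of the deposited gene table whose symbol is Actr2, Actr3, Arpc1a, Arpc1b, Arpc2, Arpc3, Arpc4, Arpc5 or Arpc5l. All 9 were present among the 18491 genes of the table, and all 9 were among the 15474 genes with enough reads to be tested.

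The series compared RNA from 3 Robo1 knockout and 3 wild type libraries. The labels describe the cells as blood stem and progenitor cells of the bone marrow, the population from which all blood lineages arise, purified by flow cytometry 8 months after poly(I:C). According to the series' design text, Robo1, a receptor for Slit guidance proteins, was removed with Mx1-cre, a recombinase switched on by interferon, after 3 doses of poly(I:C), a double-stranded RNA that induces interferon. The labels differ among themselves: each sample's description calls it KO or WT, the titles read shCtrl and shROBO1, the genotype field reads WT or ROBO1 knockdown, and the treatment field names a scrambled shRNA for the wild type libraries and a knockdown of ROBO1, ROBO2 or ROBO3 in turn for the knockout libraries. Groups here follow the descriptions. The labels do not say whether wild type mice carried Mx1-cre, whether libraries came from separate animals or pools, or how old the animals were, so p-values measure only the spread between these libraries. Mx1-cre also acts in cells other than blood cells that respond to interferon. Robo1 itself was not analysed here, so the deletion was not checked.

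Arp2/3 is the machine that makes branched actin networks. Once a nucleation-promoting factor such as WASP or WAVE activates it, it binds the side of an existing filament, and its actin-like subunits Arp2 and Arp3 serve as the seed of a new branch. In blood cells these networks drive crawling, engulfment of particles and contact with other cells, and inherited loss of ARPC1B in humans causes an immune deficiency with abnormal platelets. The complex has one copy of each of its subunits, and mammals can fill the Arpc1 place with Arpc1a or Arpc1b and the Arpc5 place with Arpc5 or Arpc5l.

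With libraries scaled by TMM, a method that sets the bulk of genes equal between libraries, 7 of the 9 subunit genes rose in Robo1 knockout cells, 0 fell and 2 did not pass the test. Arpc3 rose 3.42-fold and Arpc1b 2.74-fold, and Actr3, Arpc2, Arpc4, Actr2 and Arpc1a rose between 1.54-fold and 1.95-fold. Arpc5 and Arpc5l, which share one place in the complex, were at 0.954 and 0.960 times the wild type level and did not pass the test. Read instead as a share of all reads, only Arpc1b and Arpc3 were higher in knockout cells, 6 subunits were lower and Actr3 did not pass the test. The order of the 9 log2 fold changes was the same under both scalings, and they spanned 1.84 with TMM and 1.85 with total counts from the lowest to the highest. This had to hold closely, because a change of scaling shifts the log2 fold changes of all genes by nearly the same amount. In bulk RNA, more cells of a type and more RNA per cell cannot be told apart.

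The scaling matters in these libraries because their composition differed. The 100 most abundant genes took 59.7% to 60.8% of the reads in knockout libraries and 42.3% to 43.3% in wild type libraries. Library totals ran between 42235077 and 57058267 reads in knockout libraries and between 44578916 and 58106099 in wild type libraries. TMM factors were 0.660 to 0.685 in knockout libraries and 1.44 to 1.52 in wild type libraries. In the test over all genes with TMM (edgeR's quasi-likelihood test, a gene being called where its Benjamini-Hochberg adjusted p is below 0.05), 17.2% of the 15474 genes were called higher and 14.4% lower, with a median log2 fold change of -0.09. With total counts the same test called 4.24% higher and 70.7% lower, with a median of -1.22. Because the subunits are well expressed genes, a nearer background is the 1982 tested genes that averaged at least 50 CPM (read counts scaled to a common library size, here by TMM). Of these, 58.0% were called higher and 11.9% lower with TMM, against 16.5% higher and 74.6% lower with total counts. The 8 subunits above that level, all but Arpc1a, gave 6 higher and 0 lower with TMM, and 2 higher and 5 lower with total counts. The 9 subunits had a median log2 fold change of 0.75 under TMM and of -0.38 under total counts, beside 0.37 and -0.77 for the abundant genes. No subunit had an unadjusted p under 0.05 in the lower direction with TMM, and DESeq2 also called 7 higher and 0 lower. With an offset for exon length and GC content added to TMM, 7 subunits were again higher and 0 lower, with a median log2 fold change of 0.95, beside 20.2% of all genes higher and 8.95% lower, and 67.5% and 8.17% of the abundant genes.

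The libraries gave the same picture without a test. With TMM every knockout library lay above every wild type library for 7 subunits and below for 0, as it did for 22.2% (above) and 24.4% (below) of all tested genes, and 62.6% and 15.9% of the abundant ones. With total counts every knockout library lay above for 2 subunits and below for 6, as it did for 4.85% and 76.1% of all tested genes, and 16.2% and 75.1% of the abundant ones. Under both scalings the most frequent outcome among the subunits was also the most frequent one among well expressed genes.

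**Figure D1:**
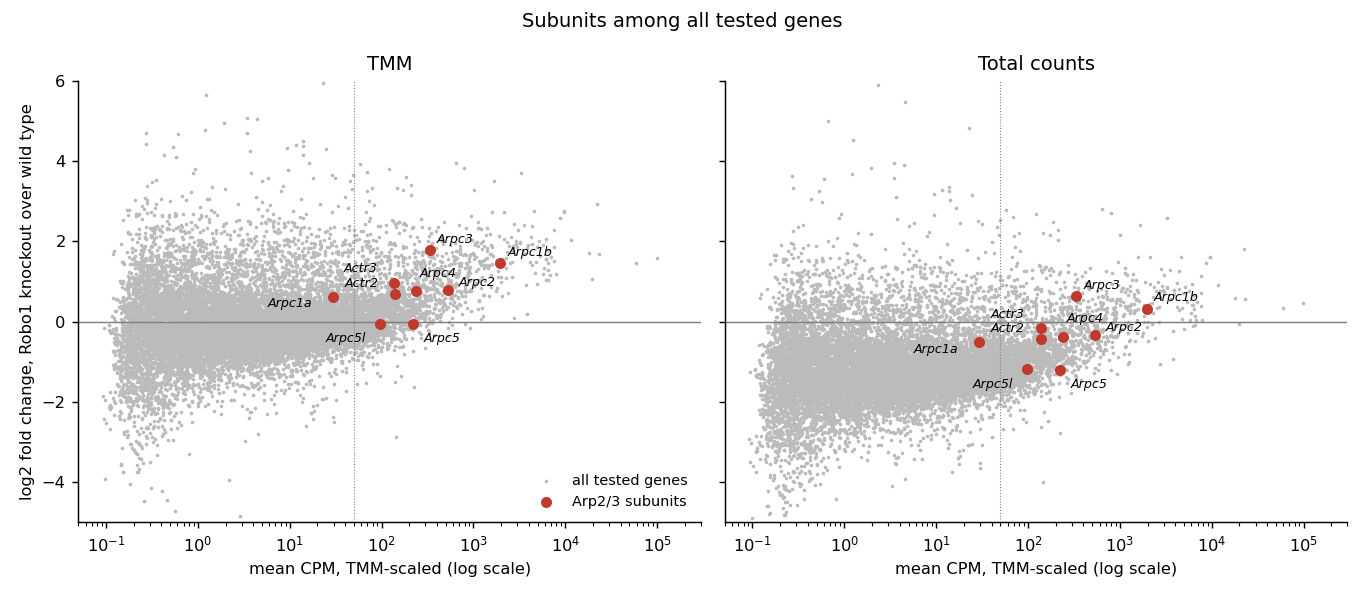
Each grey point is a tested gene, placed by its mean level in TMM-scaled CPM (log axis, dotted line at 50) and its log2 fold change, Robo1 knockout over wild type, with TMM and with total counts in separate panels; the 9 Arp2/3 subunits are labelled, and genes outside the axis range are not drawn. With TMM the subunits lie between -0.07 and 1.77, with Arpc3 and Arpc1b highest. Arpc5 and Arpc5l lie near the median of all genes, -0.09, and below the 0.37 of genes of at least 50 CPM.

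**Figure D2:**
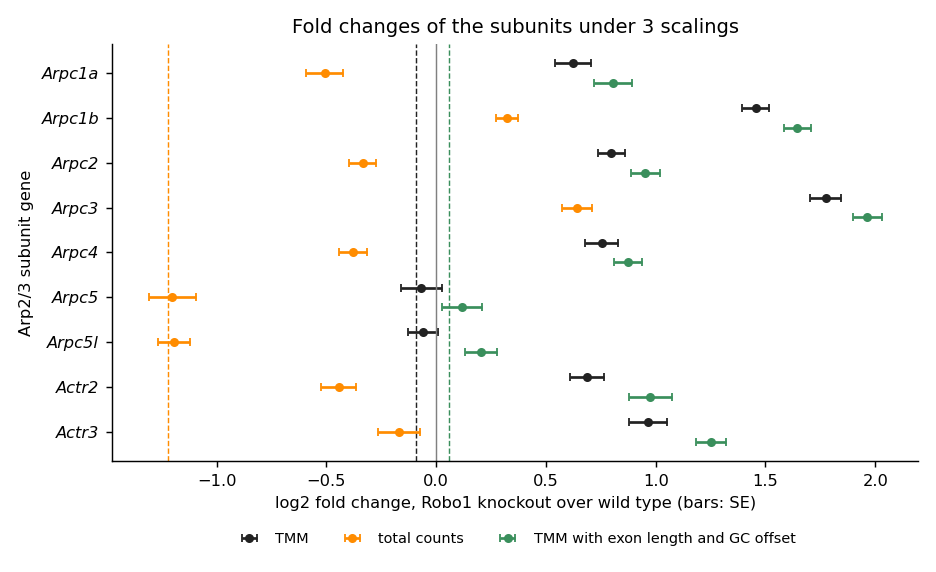
Log2 fold change of each subunit, Robo1 knockout over wild type, with its SE, under TMM, total counts, and TMM with an offset for exon length and GC content, beside dashed lines at the median of all tested genes under the same scaling. Arpc1b and Arpc3 lie above 0 under all 3 scalings, and Arpc5 and Arpc5l lie closest to the dashed lines.

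Sequence upstream of the subunit genes is shown for the pair Arpc1b and Arpc1a, which can replace each other in the complex and rose by different amounts, and for Arpc3 and Arpc5, the subunits with the highest and the lowest fold change. Each window runs from 250 bases before to 50 bases after the RefSeq start on GRCm38.p6, 5′ to 3′ on the gene's strand. Capitals mark matches on either strand to GGGCGG, bound by Sp1 and KLF factors, or to CCGGAAG, bound by ETS factors. The windows are chr5:145114006-145114305 (Arpc1b), chr5:145083619-145083918 (Arpc1a), chr5:122391628-122391927 (Arpc3) and chr1:152766292-152766591 (Arpc5), all on the plus strand.
Arpc1b: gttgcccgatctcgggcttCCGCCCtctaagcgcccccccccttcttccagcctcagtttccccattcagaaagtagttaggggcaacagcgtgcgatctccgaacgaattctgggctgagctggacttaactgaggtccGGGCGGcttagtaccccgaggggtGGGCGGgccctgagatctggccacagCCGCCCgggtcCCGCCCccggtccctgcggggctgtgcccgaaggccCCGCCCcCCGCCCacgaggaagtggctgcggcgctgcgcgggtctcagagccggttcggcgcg
Arpc1a: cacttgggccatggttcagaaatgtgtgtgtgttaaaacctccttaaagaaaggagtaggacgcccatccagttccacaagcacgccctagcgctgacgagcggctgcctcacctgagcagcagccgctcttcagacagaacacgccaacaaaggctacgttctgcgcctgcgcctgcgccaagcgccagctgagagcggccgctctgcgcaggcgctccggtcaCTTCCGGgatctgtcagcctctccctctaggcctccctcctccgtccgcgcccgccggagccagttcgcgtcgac
Arpc3: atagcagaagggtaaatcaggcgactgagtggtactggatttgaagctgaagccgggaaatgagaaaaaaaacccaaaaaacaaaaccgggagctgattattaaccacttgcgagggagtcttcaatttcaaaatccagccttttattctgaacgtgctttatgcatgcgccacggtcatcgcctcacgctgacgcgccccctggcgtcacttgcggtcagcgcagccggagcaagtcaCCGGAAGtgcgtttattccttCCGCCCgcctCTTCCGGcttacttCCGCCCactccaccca
Arpc5: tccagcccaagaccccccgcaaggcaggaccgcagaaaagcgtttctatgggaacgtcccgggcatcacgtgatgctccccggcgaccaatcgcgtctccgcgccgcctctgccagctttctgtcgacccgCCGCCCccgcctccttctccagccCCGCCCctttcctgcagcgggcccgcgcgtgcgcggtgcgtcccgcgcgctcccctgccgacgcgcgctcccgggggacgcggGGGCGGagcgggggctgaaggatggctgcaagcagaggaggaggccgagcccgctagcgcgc
The Arpc1b window held 7 matches to GGGCGG and 0 to CCGGAAG, and the Arpc1a window held 0 and 1. Arpc3 had 2 of each, and Arpc5 had 3 matches to GGGCGG and 0 to CCGGAAG. RefSeq promoter windows were found for 8 of the 9 subunits, Arpc5l being the exception. CCGGAAG occurred in 5 of these 8 (Actr2, Actr3, Arpc1a, Arpc3 and Arpc4), against 8.86% of 32851 mouse promoter windows of the same length, and GGGCGG in 6 of 8, against 35.7%. The NRF1 motif GCATGCG occurred in 3 of the 8 (Actr3, Arpc2 and Arpc3), against 3.58%, the CArG box bound by SRF in Arpc4 alone, against 1.63%, and the YY1 motif AAGATGG in none, against 6.34%. The 32851 windows were not limited to genes expressed in these cells, so these shares are not a background for well expressed genes. The matches are letter matches in one window per gene and say nothing of binding.

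The genes of the actin-like subunits, Arp2 and Arp3, lie on chromosome 11 (Actr2, 20062304 to 20112913, minus strand) and chromosome 1 (Actr3, 125392905 to 125435727, minus strand) of GRCm38. Actr3 was measured at 183, 189 and 177 CPM in the 3 knockout libraries, against 82.0, 98.0 and 101 CPM in the 3 wild type libraries. All knockout libraries lay above all wild type libraries, and wild type 1 was the lowest of the 6. Its log2 fold change was 0.97 (SE 0.09, adjusted p = 2.73e-05). Actr2 was measured at 158, 169.8 and 188 CPM in knockout libraries, against 113, 104 and 103 CPM in wild type libraries. The groups were again apart, and the log2 fold change was 0.69 (SE 0.08; adjusted p = 1.57e-04). Scaled by total counts, Actr3 had 121, 129 and 120.2 CPM in knockout libraries, against 118, 149 and 150.1 CPM in wild type libraries. These ranges overlapped, and the log2 fold change on total counts was -0.17 (95% interval -0.39 to 0.05, adjusted p = 0.137). Actr2 was lower on that scale, at 104, 116 and 128 CPM in knockout libraries, against 162, 158 and 154 CPM in wild type libraries (adjusted p = 7.19e-04). The ratio of Actr2 to Actr3 within a library, which no scaling changes, overlapped between the groups.

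A processed pseudogene of Actr3, Actr3-ps, had its own row, at 9.69 ± 1.65 CPM in knockout libraries and 4.64 ± 0.135 CPM in wild type libraries (SD, n = 3 each). Reads may be shared between it and Actr3, so both values are uncertain to that extent.

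Arpc2 and Arpc4 form the core that holds the other subunits together and contacts the existing filament. They lie on chromosome 1 (Arpc2, 74236084 to 74268209, plus strand) and chromosome 6 (Arpc4, 113378115 to 113390448, plus strand). Arpc2 had 641, 668 and 709 CPM in knockout libraries, against 399, 386 and 376 CPM in wild type libraries, and its log2 fold change was 0.80 (SE 0.06; adjusted p = 9.28e-06). Arpc4 had 312, 306 and 279.5 CPM in knockout libraries, against 193, 170.0 and 170.0 CPM in wild type libraries, and its log2 fold change was 0.75 (SE 0.08; adjusted p = 5.92e-05). For both genes every knockout library was above every wild type library, and the ratio of Arpc2 to Arpc4 overlapped between groups. On total counts the order of the groups turned round for both. Arpc2 then had 423, 458 and 482 CPM in knockout libraries, against 574, 585 and 560.3 CPM in wild type libraries, a lower level in knockout cells (adjusted p = 8.06e-04). Arpc4 then had 206, 210.0 and 190.1 CPM in knockout libraries, against 277, 258 and 253 CPM in wild type libraries (adjusted p = 5.27e-04). Exons of Arpc4 share 283 bases with Ttll3 on the same strand, and Ttll3 averaged 0.884 CPM in knockout libraries and 0.751 CPM in wild type libraries.

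Arpc1a and Arpc1b, both on the plus strand of chromosome 5 (145083830 to 145108761 and 145114215 to 145130705), encode alternative forms of the same subunit, a ring-shaped protein that contacts the activating factor. Arpc1b is the form known to predominate in blood cells. Arpc1b had 3002, 2859 and 2794 CPM in knockout libraries, against 1127, 1004 and 1026 CPM in wild type libraries. Every knockout library was far above every wild type library, and the log2 fold change was 1.45 (SE 0.06, adjusted p = 2.55e-07). Arpc1a had 35.5, 33.6 and 37.4 CPM in knockout libraries, against 23.8, 22.1 and 23.2 CPM in wild type libraries, and its log2 fold change was 0.62 (SE 0.08; adjusted p = 3.65e-04). On total counts the pair split. Arpc1b stayed higher, at 1982, 1959 and 1900.3 CPM in knockout libraries, against 1619, 1523 and 1529.6 CPM in wild type libraries (adjusted p = 2.49e-04). Arpc1a was lower, at 23.4, 23.1 and 25.5 CPM in knockout libraries, against 34.3, 33.5 and 34.5 CPM in wild type libraries (adjusted p = 4.36e-04).

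The ratio of Arpc1b to Arpc1a within each library does not depend on how libraries are scaled to each other. Raw counts gave 84.7, 85.0 and 74.7 reads of Arpc1b per read of Arpc1a in knockout libraries, against 47.3, 45.5 and 44.3 in wild type libraries. On the length-scaled values deposited with the counts, taken as FPKM (fragments scaled by transcript length and by library size), the ratios were 67.5, 64.8 and 64.9 in knockout libraries, against 33.0, 32.0 and 29.6 in wild type libraries. Arpc1b therefore made up 98.5% ± 0.0332 of the pair's FPKM in knockout libraries and 96.9% ± 0.164 in wild type libraries (SD, n = 3 each). The difference of 1.58 percentage points had a two-sided exact permutation p of 0.1, the smallest that 3 against 3 libraries can give. On raw counts the share of Arpc1b was higher in knockout libraries by 0.926 points. The FPKM of Arpc1a per total-count CPM was 0.652, 0.665 and 0.590 in knockout libraries, against 0.726, 0.719 and 0.769 in wild type libraries, so the length scaling itself differed between the groups for this gene. Exons of Arpc1b overlap those of Pdap1 on the opposite strand over 931 bases, 18.2% of the exon length of Arpc1b, and reads of the overlap cannot be assigned without knowing how strand was treated. Pdap1 had 74.7 ± 1.02 CPM in knockout libraries and 56.7 ± 3.50 CPM in wild type libraries (SD, n = 3 each), far below Arpc1b in both.

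**Figure D3:**
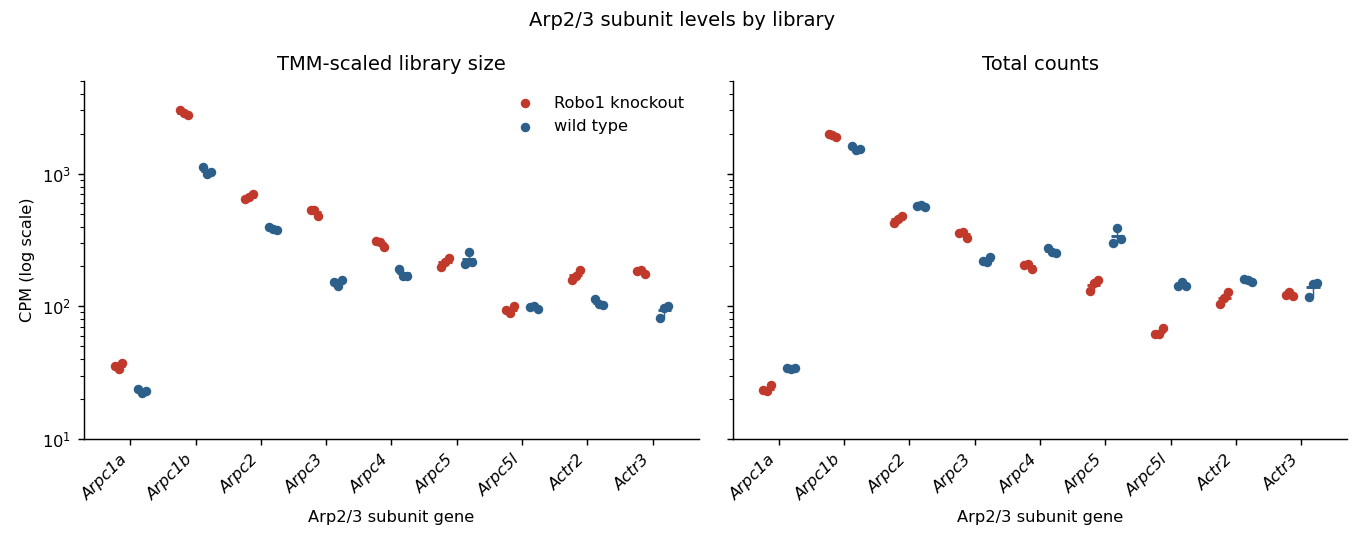
Level of each subunit in every library, in CPM on a log axis, with TMM-scaled and total-count values in separate panels and Robo1 knockout libraries (n = 3) left of wild type libraries (n = 3); points are libraries and bars are group means with SD. Arpc1b reaches 2794 to 3002 TMM-scaled CPM in knockout libraries and 1004 to 1127 in wild type libraries, and the groups overlap for Arpc5 and Arpc5l in the TMM panel.

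Arpc3, which sits beside Arp3 in the complex, lies on chromosome 5 (122391878 to 122414184, plus strand) and showed the highest fold change of the 9. It had 538, 535 and 484 CPM in knockout libraries, against 152, 143 and 159 CPM in wild type libraries. The lowest knockout library was far above the highest wild type library, and the log2 fold change was 1.77 (SE 0.07, adjusted p = 1.52e-07). On total counts Arpc3 was still higher, at 355, 366 and 329 CPM in knockout libraries, against 218, 218 and 238 CPM in wild type libraries (log2 fold change 0.64, adjusted p = 1.68e-05).

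Arpc5 and Arpc5l, the alternative forms of the subunit that ties Arp2 into the complex, had nearly equal log2 fold changes, below those of the other 7. They lie on chromosome 1 (Arpc5, 152766542 to 152775597, plus strand) and chromosome 2 (Arpc5l, 39005348 to 39015877, plus strand). Arpc5 had 199, 217 and 233 CPM in knockout libraries, against 208, 256 and 217 CPM in wild type libraries. The ranges overlapped, and the log2 fold change of -0.07 had a 95% interval of -0.28 to 0.14 (adjusted p = 0.634). Arpc5l had 93.3, 89.8 and 100.2 CPM in knockout libraries, against 98.8, 101 and 95.7 CPM in wild type libraries. These also overlapped, and the log2 fold change of -0.06 had an interval of -0.21 to 0.10 (adjusted p = 0.566). Neither interval reaches the smallest rise among the other 7 subunits, 0.62 for Arpc1a. On total counts both were the lowest of the 9 in fold change. Arpc5 then had 131, 149 and 158 CPM in knockout libraries, against 298, 388 and 323 CPM in wild type libraries (log2 fold change -1.20, adjusted p = 6.57e-06). Arpc5l then had 61.6, 61.5 and 68.2 CPM in knockout libraries, against 142, 153 and 143 CPM in wild type libraries (log2 fold change -1.19, adjusted p = 1.06e-06). Both values are close to -1.22, the median of all tested genes on that scale. They lie below -0.77, the median there of the genes of at least 50 CPM, to which both belong. With TMM both also lie below the median of those abundant genes, 0.37.

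The balance within this pair differed by less than the spread between libraries. Raw counts gave 0.470, 0.413 and 0.430 reads of Arpc5l per read of Arpc5 in knockout libraries, against 0.476, 0.393 and 0.441 in wild type libraries. Arpc5l made up 36.1% ± 1.68 of the pair's FPKM in knockout libraries and 37.4% ± 2.25 in wild type libraries (SD, n = 3 each), with a two-sided exact permutation p of 0.6. Exons of Arpc5l overlap by 62 bases with Rpl35, a ribosomal protein gene on the opposite strand with far more reads, 4918 ± 306 CPM in knockout libraries and 2629 ± 2.81 CPM in wild type libraries (SD, n = 3 each). Whether reads of Rpl35 entered the Arpc5l count was not tested.

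Over all 36 pairs of subunits, the ratio within a library separated the groups completely in 28 and overlapped in 8. The share of separated pairs is near the background, since 80.3% of all pairs among genes of at least 50 CPM were separated in the same way. The overlapping pairs were Arpc5 with Arpc5l, and 7 drawn from Actr2, Actr3, Arpc1a, Arpc2 and Arpc4: Arpc4 with each of the other 4, Arpc1a with Actr2, Arpc2 with Actr3, and Actr2 with Actr3. By these ratios Arpc3 and Arpc1b were each separated from all others. Most ratios overlapped within a middle group of 5, and Arpc5 and Arpc5l overlapped with each other alone. Separation was the usual outcome for pairs of genes of at least 50 CPM, so these groups only describe the subunits. That background leaves out Arpc1a, which averaged below 50 CPM. The widest change was between Arpc3 and Arpc5, at 2.71, 2.46 and 2.08 reads of Arpc3 per read of Arpc5 in knockout libraries, against 0.732, 0.560 and 0.735 in wild type libraries. Each knockout library lay above each wild type library; raw counts carry gene length, so the ratio is compared between libraries and not between the genes.

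Levels of different subunits can be set beside each other only per length, on the FPKM scale. In knockout libraries the order of mean FPKM was Arpc1b, Arpc3, Arpc2, Arpc4, Arpc5, Actr3, Arpc5l, Actr2 and Arpc1a. In wild type libraries it was Arpc1b, Arpc2, Arpc3, Arpc5, Arpc4, Arpc5l, Actr3, Actr2 and Arpc1a, so Arpc2 and Arpc3, Arpc4 and Arpc5, and Arpc5l and Actr3 changed places. Arpc1b averaged 999 ± 27.8 FPKM in knockout libraries and 792 ± 25.2 FPKM in wild type libraries, and Arpc1a averaged 15.2 ± 0.161 FPKM in knockout libraries and 25.2 ± 1.25 FPKM in wild type libraries (SD, n = 3 each). Arpc3 averaged 327 ± 17.2 FPKM in knockout libraries and 212 ± 12.8 FPKM in wild type libraries. Arpc2 averaged 266 ± 16.4 FPKM in knockout libraries and 336 ± 6.15 FPKM in wild type libraries. In knockout libraries no neighbours in the order overlapped, the closest being Arpc4, at 80.9, 77.6 and 69.9 FPKM, and Arpc5, at 58.1, 64.9 and 69.8 FPKM. In wild type libraries 2 pairs of neighbours overlapped. Arpc5 had 129, 172 and 143 FPKM there and Arpc4 had 101, 129 and 102 FPKM, and Actr3 had 37.7, 49.5 and 49.5 FPKM and Actr2 had 40.1, 41.0 and 40.4 FPKM. The deposited FPKM of Arpc4 and Arpc1a should be read with care: the FPKM per total-count CPM, a ratio that a fixed gene length would hold constant, varied 1.38-fold and 1.30-fold between libraries for them, and by at most 1.09-fold for the other 7.

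As a share of the summed FPKM of the 9, Arpc1b took 53.9% ± 1.02 in knockout libraries and 44.1% ± 2.04 in wild type libraries, and Arpc3 took 17.7% ± 0.746 in knockout libraries and 11.8% ± 0.747 in wild type libraries (SD, n = 3 each). All others took a smaller share in knockout libraries. Arpc2 took 14.4% ± 1.04 in knockout libraries and 18.7% ± 0.191 in wild type libraries, and Arpc5 took 3.47% ± 0.354 in knockout libraries and 8.21% ± 1.08 in wild type libraries. Actr3, at 2.18% ± 0.0636 in knockout libraries and 2.53% ± 0.353 in wild type libraries, was the one subunit whose shares overlapped between groups.

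The 9 genes together took 0.341%, 0.347% and 0.340% of all counts in knockout libraries, against 0.344%, 0.346% and 0.339% in wild type libraries. These sums overlapped, with Arpc1b alone at 0.195% ± 0.00422 in knockout libraries and 0.156% ± 0.00538 in wild type libraries, and the other 8 at 0.148% ± 0.00476 in knockout libraries and 0.187% ± 0.00612 in wild type libraries (SD, n = 3 each). Outside the 100 most abundant genes the picture changed: there the subunits took 0.855% ± 0.00391 of counts in knockout libraries and 0.597% ± 0.00354 in wild type libraries, a ratio of 1.43. In TMM-scaled CPM the sums were 5076 ± 80.8 in knockout libraries and 2317 ± 69.0 in wild type libraries, a ratio of 2.19. Actin itself, the substrate of the complex, rose more than the subunits: Actb and Actg1 together had 2372 ± 295 FPKM in knockout libraries and 528 ± 19.6 FPKM in wild type libraries. The summed FPKM of the subunits over that of the 2 actins was 0.714, 0.760 and 0.895 in knockout libraries, against 3.30, 3.61 and 3.31 in wild type libraries.

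**Figure D4:**
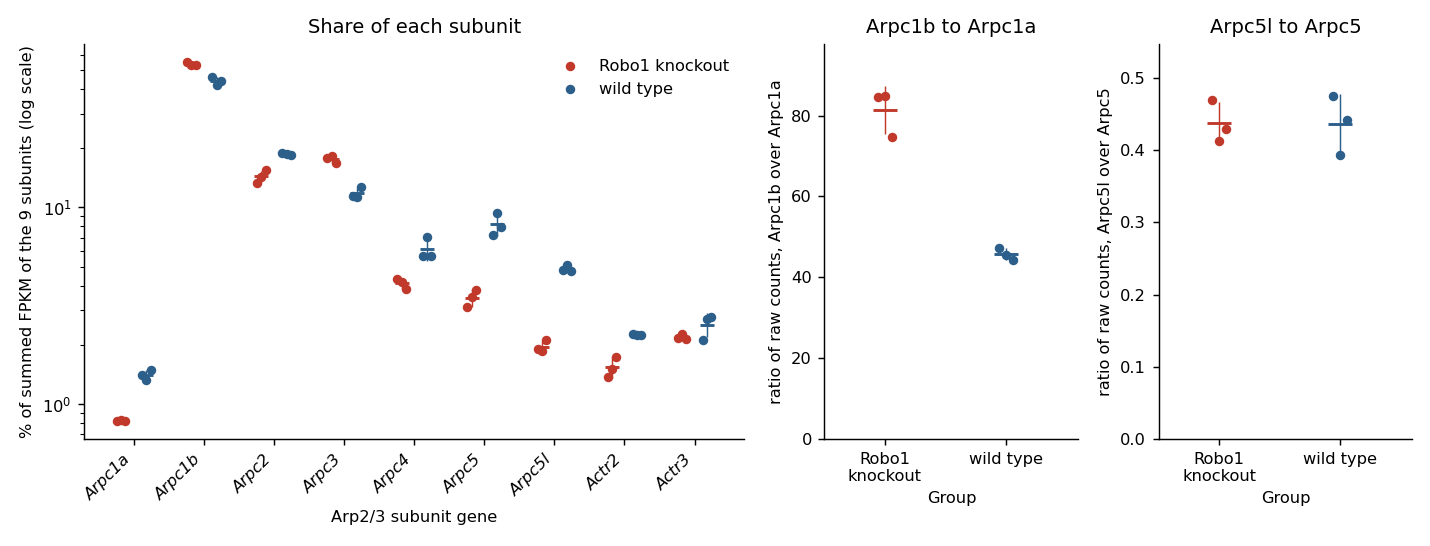
Each subunit's share of the summed FPKM of the 9 (log axis) and the raw count ratios Arpc1b to Arpc1a and Arpc5l to Arpc5, for Robo1 knockout (left in each pair) and wild type libraries (n = 3 each), with bars at the mean and SD; none depends on scaling between libraries. The Arpc1b to Arpc1a ratio of raw counts is 74.7 to 85.0 in knockout libraries and 44.3 to 47.3 in wild type libraries, while the Arpc5l to Arpc5 ratio overlaps, at 0.413 to 0.470 in knockout libraries and 0.393 to 0.476 in wild type libraries.

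The factors that switch the complex on were followed in 3 lists, to be read beside the 17.2% of all tested genes that were called higher and the 14.4% called lower with TMM, and the 4.24% and 70.7% with total counts. Of 11 tested genes of the WASP family and its partners, 1 rose and 2 fell with TMM, with a median log2 fold change of -0.06, and 0 were higher and 10 lower with total counts. Was, the blood-cell member of the family, had 12.1 ± 4.05 CPM in knockout libraries and 12.7 ± 2.88 CPM in wild type libraries (log2 fold change -0.06, 95% interval -0.59 to 0.47). With TMM its widely expressed relative Wasl fell to 1.50 ± 0.227 CPM in knockout libraries, against 2.86 ± 0.576 CPM in wild type libraries. The adaptor Nck2 rose, at 0.827 ± 0.347 CPM in knockout libraries and 0.151 ± 0.0666 CPM in wild type libraries, both low, and did not pass on total counts. Of 9 tested genes of the WAVE complex, which activates Arp2/3 downstream of Rac, 1 rose and 3 fell with TMM, and 1 was higher and 6 lower with total counts. The small subunit Brk1 rose to 176 ± 6.79 CPM in knockout libraries, against 59.2 ± 3.83 CPM in wild type libraries, and was also called higher on total counts. Wasf2 fell to 46.8 ± 3.50 CPM in knockout libraries, against 61.7 ± 5.81 CPM in wild type libraries, with a log2 fold change of -0.40 (SD, n = 3 each throughout). The blood-cell subunit Nckap1l also fell, with a log2 fold change of -0.41. Wasl, Wasf2 and Nckap1l were lower on total counts too but did not pass with the length and GC offset, under which their log2 fold changes were -0.61, -0.24 and -0.17. Nckap1, its relative outside blood, had 0 reads in each knockout library, against 21, 48 and 38 reads in wild type libraries. With TMM none of the 7 tested genes of the WASH complex and other promoting factors passed in edgeR's test, 0 had an unadjusted p under 0.05 and DESeq2 called 0, whereas 6 of the 7 were lower with total counts.

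Rac2, the Rac protein of blood cells, rose with TMM to 2049 ± 134 CPM in knockout libraries, against 811 ± 29.5 CPM in wild type libraries, and was higher on total counts as well (log2 fold change 0.20, adjusted p = 0.00828). Cdc42, which activates WASP proteins, rose to 292 ± 7.19 CPM in knockout libraries, against 174 ± 11.6 CPM in wild type libraries, with log2 fold changes of 0.75 under TMM and -0.38 under total counts, both called. Of 15 tested Cdc42 and Rac effectors, 1 rose with TMM, Cdc42ep3, which was lower on total counts, and 0 fell, with 4 and 1 at an unadjusted p under 0.05 and 2 and 0 by DESeq2. With total counts 13 of the 15 were lower and 0 higher.

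Of 8 tested genes whose proteins restrain or remove branches, 2 were higher and 1 lower with TMM, near the shares of all tested genes, and 1 was higher and 5 lower with total counts. Coro1a, the coronin of blood cells, rose to 1016 ± 81.0 CPM in knockout libraries, against 302 ± 28.6 CPM in wild type libraries, with log2 fold changes of 1.75 under TMM and 0.62 under total counts. Coro1b rose with TMM (0.98) and did not pass with total counts (-0.15). Gmfb, a debranching factor, fell to 15.5 ± 0.941 CPM in knockout libraries, against 27.4 ± 3.45 CPM in wild type libraries, while its blood-cell relative Gmfg, at 475 ± 28.4 CPM in knockout libraries and 418 ± 35.3 CPM in wild type libraries, did not pass with TMM. Gmfg was lower with total counts (log2 fold change -0.95, adjusted p = 2.27e-06) and higher with the length and GC offset (0.37, adjusted p = 0.00852). The inhibitor Arpin had 0, 0 and 8 reads in knockout libraries, against 16, 23 and 19 reads in wild type libraries, and did not pass with TMM. Of 7 tested capping proteins, 2 rose with TMM, Capzb and Twf2, both of which were lower on total counts, and 0 fell with TMM, with 2 and 0 also at an unadjusted p under 0.05 and by DESeq2. Neither of the 2 tested branch stabilisers passed with TMM, where 1 had an unadjusted p under 0.05 and DESeq2 called 0, and both were lower with total counts.

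Among the lists of genes around the complex, the actins and the proteins that bind actin monomers had the highest median, with 8 of 10 tested genes higher and 0 lower with TMM, a median log2 fold change of 1.46, and 5 higher and 1 lower with total counts. List counts here and above are to be read beside all tested genes, 17.2% higher and 14.4% lower with TMM. With total counts these shares were 4.24% and 70.7%. Of genes of at least 50 CPM, 58.0% were higher with TMM and 16.5% with total counts. Actb rose to 6110.0 ± 797 CPM in knockout libraries, against 468 ± 57.4 CPM in wild type libraries, and was higher on total counts too (log2 fold change 2.58). The filament-severing cofilin Cfl1 rose to 5130.4 ± 83.0 CPM in knockout libraries, against 1315 ± 39.4 CPM in wild type libraries. Tmsb4x, a thymosin that holds actin monomers, rose with log2 fold changes of 2.76 under TMM and 1.62 under total counts. The formins, which nucleate unbranched filaments, had 1 of 9 tested genes lower and 0 higher with TMM, the same by DESeq2 and at an unadjusted p under 0.05, and 8 lower and 0 higher with total counts. The gene lower with TMM, Diaph1, fell to 10.6 ± 1.13 CPM in knockout libraries, against 15.0 ± 0.717 CPM in wild type libraries (SD, n = 3 each), and did not pass with the length and GC offset. Of the 7 tested actin-related proteins outside the complex, 1 rose with TMM, Actr10 of the dynactin complex, which did not pass on total counts, and 1 fell, Actr8, a chromatin remodelling subunit, which did not pass with the offset. Actr3b, a relative of Actr3, had 0, 9 and 9 reads in knockout libraries, against 2, 14 and 0 reads in wild type libraries, too few to test.

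**Figure D5:**
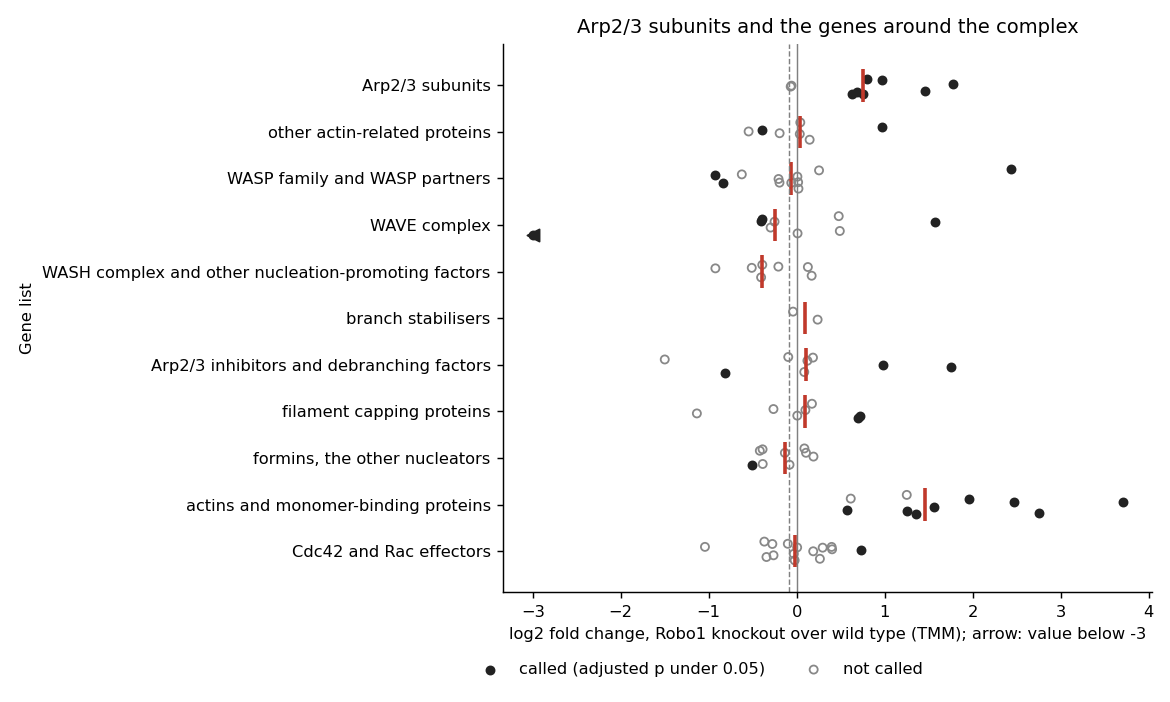
Log2 fold change with TMM, Robo1 knockout over wild type, of every tested gene in the Arp2/3 list and 10 lists of genes around it; filled points passed the test, red bars are list medians and the dashed line is the median of all tested genes. The Arp2/3 median of 0.75 is second to the 1.46 of actins and monomer-binding proteins, and the medians of the activator and formin lists lie between -0.39 and -0.06.

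The cell type label was set beside markers, of which 59 of 60 were in the table. None of them was at 0 in all 6 libraries, whatever their cell type, so detection alone does not check the label. All 10 stem and progenitor markers were detected, with a summed level of 173 to 181 CPM in knockout libraries and 169.6 to 175 CPM in wild type libraries; 1 rose and 3 fell with TMM. On total counts these sums were 117 to 124 CPM in knockout libraries and 244 to 265 CPM in wild type libraries, with 9 of 10 lower. Counts of markers called, here and in the next paragraph, stand beside 17.2% of all tested genes higher and 14.4% lower with TMM. With total counts those shares were 4.24% and 70.7%. Among genes of at least 50 CPM, 58.0% were higher and 11.9% lower with TMM, and 16.5% and 74.6% with total counts. Kit, the stem cell factor receptor, had 16.9 ± 0.276 CPM in knockout libraries and 13.7 ± 1.77 CPM in wild type libraries, and Cd34 had 102 ± 0.483 CPM in knockout libraries and 106 ± 4.54 CPM in wild type libraries (SD, n = 3 each). These genes were named after their values were seen and do not stand for the list, whose median log2 fold change with TMM was -0.14. The 5 genes of granulocyte-monocyte progenitors, led by Mpo, all rose with TMM, with summed levels of 260303 to 276058 CPM in knockout libraries and 84249 to 94315 CPM in wild type libraries. The 4 eosinophil genes, led by Prg2, all rose as well, with sums of 43231 to 48943 CPM in knockout libraries and 5622 to 6781 CPM in wild type libraries. In knockout and wild type libraries alike, the granulocyte-monocyte and eosinophil sums were far above the stem and progenitor sum. On total counts the granulocyte-monocyte sums were 178383 to 182270 CPM in knockout libraries and 127821 to 135480 CPM in wild type libraries. The 6 mature neutrophil genes summed to 111 to 113 CPM in knockout libraries and 107 to 135 CPM in wild type libraries, with 2 higher. Erythroid genes summed to 2891 to 3480 CPM in knockout libraries and 865 to 1152 CPM in wild type libraries, with 2 of 5 higher. On total counts 2 of these 5 were higher and 2 lower. Monocyte and macrophage genes summed to 62.7 to 69.5 CPM in knockout libraries and 87.2 to 92.1 CPM in wild type libraries, with 1 of 5 tested genes lower. With TMM the granulocyte-monocyte, eosinophil and erythroid sums were apart between the groups in the direction of the 7 subunits that rose. So were the basophil and mast cell, plasma cell, and megakaryocyte and platelet sums given below. A sum does not stand for each gene of its list. Median log2 fold changes with TMM were 1.59, 2.84 and 0.29 for the granulocyte-monocyte, eosinophil and erythroid lists. For the basophil and mast cell, plasma cell, and megakaryocyte and platelet lists they were 0.52, 0.07 and -0.63. The part of any of these cell types in the subunit values was not tested.

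Of the 5 remaining marker lists, 3 summed higher and 2 lower in knockout libraries with TMM, and all 5 summed lower with total counts. Basophil and mast cell genes, 2 of 4 of them higher, summed to 3480 to 3870.1 CPM in knockout libraries and 1964 to 2275 CPM in wild type libraries. Plasma cell genes, with 1 of 4 higher and 1 lower, summed to 991 to 1153 CPM in knockout libraries and 723 to 804 CPM in wild type libraries. Megakaryocyte and platelet genes, with 1 of 4 higher and 1 lower, summed to 165 to 183 CPM in knockout libraries and 145 to 155 CPM in wild type libraries. On the lower side, B lineage genes, 3 of 6 of them lower, summed to 73.8 to 82.3 CPM in knockout libraries and 92.3 to 112 CPM in wild type libraries. T and NK cell genes, 1 of 5 lower, summed to 8.02 to 9.29 CPM in knockout libraries and 13.7 to 14.7 CPM in wild type libraries.

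To see which genes followed the complex most closely, the mean centred log2 profile of the 9 subunits over the 6 libraries was set against 4844 other genes by Euclidean distance. The nearest 5 were M6pr, a sorting receptor for lysosomal enzymes, Ltb4r1, a leukotriene receptor, Atp5o, a subunit of the ATP synthase, Eif4h, a translation initiation factor, and Rps27l, a ribosomal protein relative, with distances of 0.0363 to 0.0804 in log2 units and log2 fold changes of 0.77 to 0.80. Of the subunits themselves, Arpc2 lay nearest to the mean profile, at 0.0961, and Arpc3 farthest, at 1.24. The measure covers 6 libraries in 2 groups, so it mostly reflects the size of the difference between them.

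The authors' deposited table, made with DESeq2, gave log2 fold changes of 1.78 for Arpc3, 1.46 for Arpc1b, 0.97 for Actr3, 0.80 for Arpc2, 0.76 for Arpc4, 0.69 for Actr2, 0.63 for Arpc1a, -0.05 for Arpc5l and -0.06 for Arpc5. The authors' deposited table classed Arpc1b and Arpc3 as UP and the other 7 as STABLE. The class did not follow the adjusted p alone. Of the STABLE genes, Actr3, Arpc2, Arpc4, Actr2 and Arpc1a had adjusted p-values of 1.52e-07 or lower in the authors' DESeq2 comparison. Arpc5 and Arpc5l had 0.72 and 0.73 there.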

How the data were processed

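RNA from 6 libraries was analysed from 1 table of 18491 genes. The authors deposited raw read counts per gene and library and length-scaled values whose header gives no unit and which were taken as FPKM. The authors' deposited table also holds their DESeq2 comparison, with log2 fold changes, standard errors and adjusted p-values. Per the submitters' processing notes, the build was mm10 and the tools included HISAT2 2.2.1, fastp 0.22.0, DESeq2 1.32.0 and featureCounts 2.0.1. How strand was counted is not given in the sources.

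Counts were tested with edgeR 4.0.16 in R 4.3.3: filterByExpr defaults, TMM, the two-sided quasi-likelihood test with group as the only term, and Benjamini-Hochberg adjustment over 15474 genes. The same test was run on total counts. DESeq2 1.42.0, an exon length and GC offset (mgcv 1.9.3) and the alternatives in the closing section were also run. CPM is TMM-scaled unless total counts are named. Loci follow GENCODE vM21 (GRCm38), and promoters follow RefSeq. The members and gene lists were chosen with earlier results of these data known. All 9 subunits are named; from other lists, up to 4 genes of lowest p, any called in opposite directions by TMM and total counts, and Cdc42, Was, Actb, Cfl1, Arpin and Actr3b could be named. Kit and Cd34 are named outside this rule, after their values were seen. Totals per library were 42235077 to 58106099 counts. Robo1 and Robo2 were not analysed here, and the counts of 1 gene list are not reported here.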

Additional observations from a re-analysis of the deposited data

How the results depend on the processing

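Scaling decided most calls. With total counts, 656 genes were called higher and 10936 lower, and the subunits gave 2 higher and 6 lower; with totals taken without the 100 most abundant genes, 1254 and 8099 genes and 4 and 2 subunits. The 103 listed genes around the complex gave 20 higher and 12 lower with TMM, 8 and 73 with total counts, 60 lower without the 100 most abundant genes, 35 and 4 with the length and GC offset, and 32 and 4 with that offset and a replicate block. Genes called lower numbered 2229 with TMM, 1385 with the offset and 1149 with offset and block. Direction reversed on total counts for Arpc1a (-0.51), Arpc2 (-0.34), Arpc4 (-0.38), Actr2 (-0.44) and Actr3 (-0.17), and with the offset, with or without the block, for the uncalled Arpc5 (0.12) and Arpc5l (0.20). The cause was not tested. The 9 subunits kept direction and call with DESeq2, its size factors and no filter.

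Deviations of same-numbered libraries had correlations of 0.041, -0.0051 and 0.0477, against -0.0755 to 0.0288 for differently numbered ones. All are small, but so few libraries cannot exclude that the numbers mark pairs. With the block, 2467 genes were higher and 1906 lower, and 7 subunits higher and 0 lower. Leaving out 1 library gave 2226 to 2542 genes higher and 1356 to 2142 lower (1356 without wild type 2, 1419 without wild type 3), 7 to 7 subunits higher and 0 to 0 lower, 17 to 21 listed genes higher and 8 to 12 lower, and Arpc5 at -0.13 to 0.04 (0.0365 without wild type 2, a reversed sign of an uncalled value). The Arpc1b share differed by 1.49 to 1.65 points, and by 0.926 on raw counts; the Arpc5l share by -2.40 to -0.156. The subunits' share of all counts differed by -0.00264 to 0.00132 points, by 0.258 without the 100 most abundant genes and by -0.0159 on length-scaled values.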
